A study of Arabidopsis thaliana with 30 samples.

Results

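The mitochondria-encoded genes of Arabidopsis were followed in rosette leaves of plants that lacked functional HEN2, carried a shortened SERRATE (SE), or both. Members were all genes whose identifier starts with ATMG, the prefix for genes of the mitochondrial genome. This gave 152 of the 34262 genes of the first RNA-seq experiment (RNA-seq 1) and 152 of the 32832 genes of the second (RNA-seq 2). No read was listed in any library for 12 members in RNA-seq 1 and for 2 in RNA-seq 2. HEN2 is the RNA helicase of the nuclear exosome targeting complex, which delivers nuclear RNA to a 3′ to 5′ exonuclease, and SE is a nuclear RNA effector protein best known from microRNA processing. RNA-seq 1 compared wild type (WT) of the Col-0 accession with hen2-2, the T-DNA line GK774_H07, at 22 °C. RNA-seq 2 compared WT, hen2-2, se-2, a line with a C-terminally truncated SE protein, and the se-2 hen2-2 double mutant at 20 °C. All plants were 4 weeks old, and each genotype had 3 biological replicates (n = 3 throughout), so p-values measure the spread between these replicates. Each mutant was a single line, and RNA was depleted of rRNA before stranded libraries were made. In every library labelled hen2-2 or se-2 hen2-2 the level of HEN2 was below that of every library with intact HEN2 of the same experiment, and SE was lower in the same way in both genotypes with the se-2 allele. Leaf marker genes were abundant (66.8 to 3289 counts per M counts, CPM, where M is 1000000), flower markers were at or below 0.409 CPM and root markers at or below 0.015 CPM.

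Plant mitochondria keep a small genome that encodes part of the respiratory chain, some ribosomal proteins, cytochrome c maturation factors, rRNAs and tRNAs, together with many open reading frames without a known product. It is transcribed by phage-type RNA polymerases that are made in the nucleus, and its transcripts are spliced, edited and degraded inside the organelle by imported proteins. HEN2 and SE act in the nucleus, so a comparison of genotypes asks whether organellar transcripts differ when nuclear RNA surveillance is impaired. The members comprised 9 for complex I (NADH dehydrogenase, nad), 1 for complex III (cob), 3 for complex IV (cytochrome c oxidase, cox) and 6 for complex V (ATP synthase, atp). Those of complex I are not all separate subunits. ATMG00060, ATMG00513 and ATMG00665 are pieces of nad5, and ATMG01320 is a piece of nad2. A further 5 encoded cytochrome c maturation factors (ccm), 6 ribosomal proteins (rpl, rps) and 3 rRNAs. Another 27 had the length of a tRNA (71 to 88 nt), and the remaining 92 were open reading frames or were not annotated in the sources used here. Names came from notes that pair a nuclear gene with a member (45 members) or from a unique match of length to a RefSeq gene of TAIR10.1 (43 members), with 18 members named by both. Members of known function that neither source named fell into the class of 92, so shares of the named classes may be too low. ATMG00020, the most abundant member, was taken as the 26S rRNA because of its level and length, with no match in the annotation.

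Much of the mitochondrial genome also exists as a nuclear copy near the centromere of chromosome 2, and this bears on how a member's reads can be counted. Of the 47 members whose sequence could be searched, 31 had a copy on chromosome 2 that covered at least 80% of the member at 95% identity or more, and 16 had none. The windows shown here are the first 30 bases of the coding sequence of rpl5, a protein of the large ribosomal subunit, and of cob, the apocytochrome b of complex III, each with the same stretch of its chromosome 2 copy, because the largest differences of RNA-seq 1 among members with a known protein product fell on them. Coordinates are of TAIR10.1, sequences are from RefSeq, and each is written 5′ to 3′ on the coding strand with mismatches in capitals, of which there were none.
ATMG00210 (rpl5), MT:185290-185319, minus strand: atgtttccactcaattttcattacgaagat
AT2G07725, chr2:3448402-3448431, plus strand: atgtttccactcaattttcattacgaagat
ATMG00220 (cob), MT:182829-182858, minus strand: atgactataaggaaccaacgattctctctt
AT2G07727, chr2:3450863-3450892, plus strand: atgactataaggaaccaacgattctctctt
The full coding sequences, 558 bases of rpl5 and 1182 bases of cob, also had 0 mismatches against chromosome 2. Reads from such stretches cannot be assigned to a genome by their sequence. A contrasting member is ATMG00665, the third exon of nad5 (a complex I subunit that is joined from separate transcripts), which lies at MT:360107-360128 on the plus strand, is 22 nt long and had no such copy.
ATMG00665 (nad5, exon 3): gatatgatgattggtttaggta
It was listed at 0 in all libraries of RNA-seq 1 and had 4 to 38 counts in RNA-seq 2, so this member was counted by the second procedure only.

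Across the genotypes, mitochondrial genes took about the same part of the non-chloroplast RNA. The share was defined as the counts on members other than the 3 rRNA genes, as a percentage of those counts plus all counts on nuclear genes. In RNA-seq 1 it was 2.27, 2.29 and 1.97% in the WT libraries and 2.3, 2.24 and 2.06% in hen2-2, so the groups overlapped (2.18% ± 0.18 and 2.2% ± 0.123, SD). In RNA-seq 2 the WT libraries had 0.704, 0.736 and 0.472% and the hen2-2 libraries 0.69, 0.767 and 0.536%. The se-2 libraries had 0.717, 0.457 and 0.48%, and those of the double mutant 0.723, 0.467 and 0.526%. All 4 genotypes overlapped, with means ± SD of 0.637 ± 0.144, 0.664 ± 0.117, 0.551 ± 0.144 and 0.572 ± 0.134%. In leaf tissue, fewer mitochondria or cells and less RNA per organelle cannot be told apart in such a share.

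**Figure D1:**
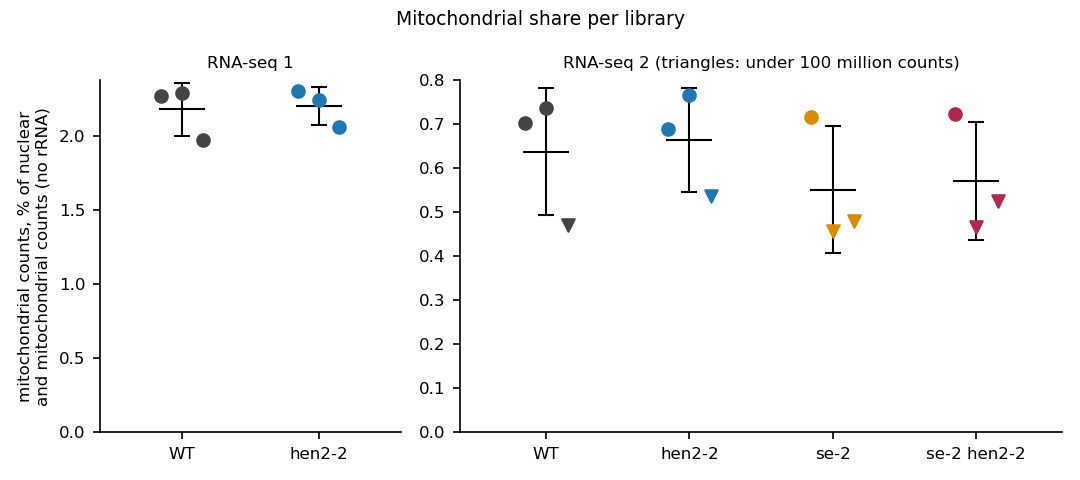
Mitochondrial share of each library (vertical axis, % of nuclear plus mitochondrial counts, rRNA genes left out) by genotype, with RNA-seq 1 on the left and RNA-seq 2 on the right; points are libraries and lines are means. In RNA-seq 1 all libraries lie between 1.97 and 2.3%, and in RNA-seq 2 the libraries under 100 M counts (triangles) lie between 0.457 and 0.536%, below all others at 0.69 to 0.767%.

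The spread within RNA-seq 2 followed library size. The 6 libraries of RNA-seq 1 had totals of 62.58 to 105.5 M counts, of which members without rRNA genes held 282019 to 471088, and every hen2-2 library was larger than every WT library. For the 12 libraries of RNA-seq 2 the totals were 47.75 to 156.6 M, and members held 108805 to 357597. The 6 RNA-seq 2 libraries with over 100 M counts had shares 1.48 times those of the other 6, while chloroplast genes took 68.0 to 72.2% of their counts against 50.6 to 57.8%. Of all counts, chloroplast genes included, members took 0.189 to 0.231% in the larger libraries and 0.218 to 0.238% in the smaller ones. WT and hen2-2 each had 2 large libraries and 1 small one, whereas se-2 and se-2 hen2-2 each had 1 large and 2 small ones. The log2 ratio of mean shares was -0.21 for se-2 against WT and -0.16 for se-2 hen2-2 against WT over all libraries. Within the large libraries the same ratios were -0.01 and 0.01, and within the small ones -0.01 and 0.07. Of the 98 members tested, 19 (19.4%) were higher (11) or lower (8) in every large library than in every small one, against 4.23% of all genes tested. Because 3 counts were 0.000637 to 0.00276% of a library's mitochondrial counts, members near that level could not be measured in the smaller libraries.

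Within the mitochondrial counts the classes kept similar proportions between genotypes but not between experiments. In RNA-seq 2, complex V transcripts took the most, with 31.7, 31.3 and 30.9% in the WT libraries and 30.4, 30.3 and 29.9% in those of hen2-2. The class held 29.1, 28.8 and 29.8% in se-2 and 31.8, 31.5 and 31.7% in the double mutant. All hen2-2 and all se-2 libraries were thus below all WT and all double mutant libraries. Most of this class was the gene of subunit 9 (11.2 to 13.3% of the mitochondrial counts), which forms the membrane ring, and atp1 (9.83 to 11.9%), the alpha subunit of the catalytic head. Complex IV held 20.5 to 26.3%, complex I 11.7 to 13.5% and open reading frames 19.1 to 20.7%, with the genotypes overlapping throughout for complex IV and open reading frames. Ribosomal protein genes took 7.88 to 10.5% in the large libraries and 9.82 to 13.1% in the small ones. In RNA-seq 1 the open reading frames and members not annotated took 43.3 to 46.1%. Complex I took 16.6 to 17.7%, complex IV 14.3 to 15.2% and complex V 14.4 to 15.7%. WT and hen2-2 overlapped or met in each.

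**Figure D2:**
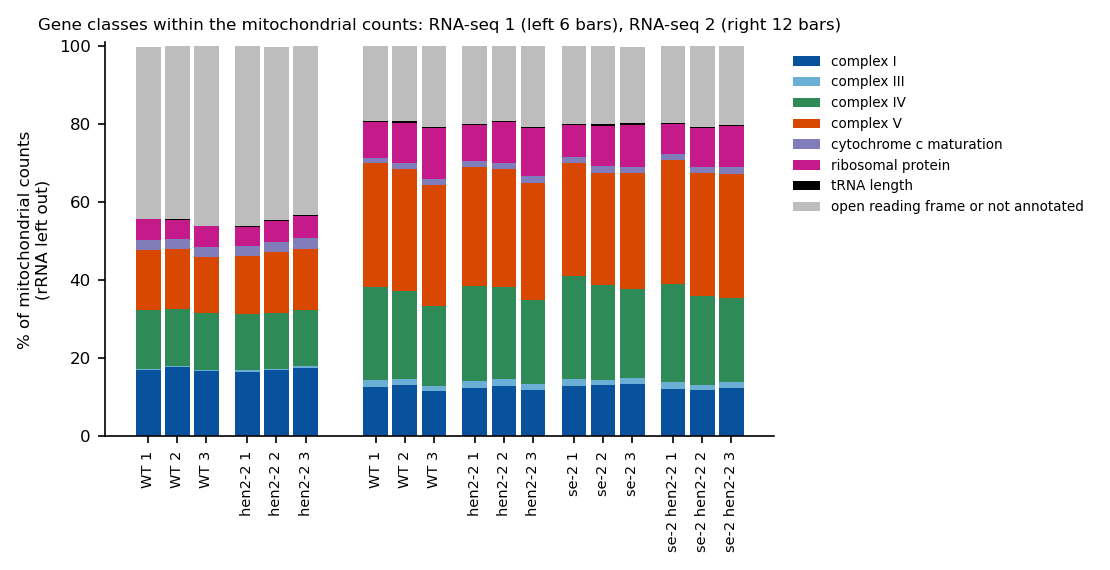
Composition of the mitochondrial counts, rRNA left out, in each library (stacked bars, vertical axis in %), with the 6 libraries of RNA-seq 1 on the left and the 12 of RNA-seq 2 on the right. Members that are open reading frames or not annotated fill 43.3 to 46.1% of each RNA-seq 1 bar and 19.1 to 20.7% of each RNA-seq 2 bar.

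The experiments differed most in the counts of single members. ATMG00030, an unannotated frame, had 83230 to 133073 estimated reads per library in RNA-seq 1 (26.7 to 31.4% of the mitochondrial counts) but 35 to 265 counts in RNA-seq 2. Per length and within mitochondrial counts, its WT level was 595-fold higher in RNA-seq 1. The gene of ATP synthase subunit 9 (ATMG01080) went the other way and was 987-fold higher in RNA-seq 2, and ATMG00280, annotated as a copy of the catalytic domain of the large subunit of Rubisco, was 197-fold higher there. Over the 105 members with a level above 0 in both experiments, WT levels per length (log2) had a Pearson r of 0.76 across genes, which are not independent replicates, and 30 members differed more than 4-fold. Over the 27 of them with a known product r was 0.36, and 5 differed more than 4-fold. cox1, the catalytic subunit of cytochrome c oxidase, ranked 2 in both. The counting procedures, temperature and library depth differed together between the experiments and cannot be told apart.

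In hen2-2 plants of RNA-seq 1, most mitochondrial transcripts had levels close to WT, and the largest differences among those with a known protein product, rpl5 and cob, sat on members with a nuclear copy. Members were tested in a fit over all genes (edgeR quasi-likelihood test, two-sided, p-values adjusted by Benjamini-Hochberg over all genes). Each fit was made on the library scale (TMM factors) and on the mitochondrial scale, where the library size is the sum over members without rRNA genes, so that a value compares a transcript with the other mitochondrial transcripts. Of the 122 members that passed the filter on low counts, 0 passed an adjusted p of 0.05 on the library scale, where 1.35% of all genes did. On the mitochondrial scale 1 passed, rpl5, which was lower in hen2-2, against 1.34% of all genes. At an unadjusted p under 0.05, 4 members were higher and 2 lower on the library scale (all genes, 13.1%), and 3 were higher and 6 lower on the mitochondrial scale (all genes, 13.1%). WT and hen2-2 libraries did not overlap for 11 higher and 5 lower members on the library scale, against 19.8% of all genes. The median log2 fold change was 0.10 for members and 0.02 for all genes tested, and on the mitochondrial scale 0.01 and -0.07. No member differed by more than 1 on the log2 scale, and for 83 of the 122 the 95% interval of the log2 fold change lay within ±1. The median half-width of this interval, which is not adjusted for the number of genes tested, was 0.59. For a typical member, changes below about that size could not be told from 0, and a call after adjustment needed a larger change.

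**Figure D3:**
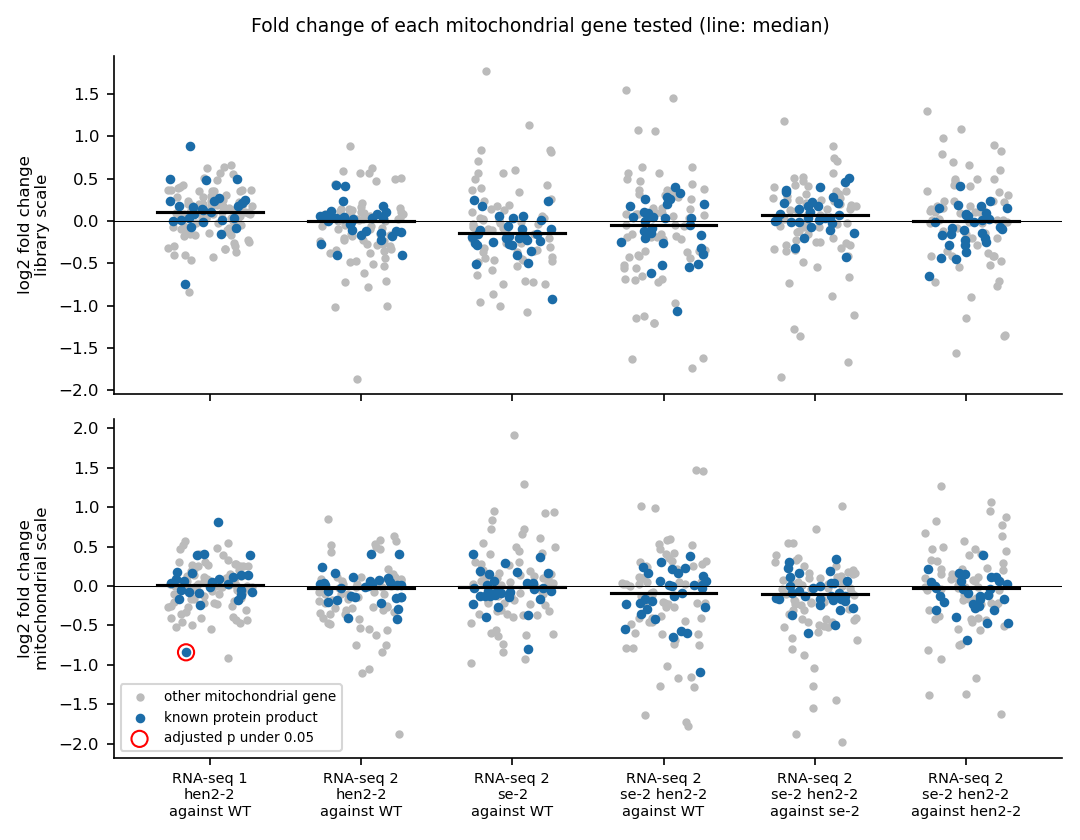
log2 fold change of each mitochondrial gene tested, in 6 comparisons (columns), on the library scale (top) and the mitochondrial scale (bottom); blue points have a known protein product, grey points do not, and lines are medians. Medians lie between -0.14 and 0.10 on the library scale, and the only ringed point (adjusted p under 0.05) is rpl5 at -0.84 in RNA-seq 1.

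Transcripts of the respiratory complexes differed little between WT and hen2-2 in RNA-seq 1. For complex I, nad7, a subunit of the matrix arm, had 213, 236 and 225 CPM in WT and 217, 238 and 221 in hen2-2, where the groups overlapped (log2 fold change 0.00, 95% interval -0.35 to 0.36). nad4, a membrane arm subunit, had 179, 210 and 196 CPM in WT and 200, 218 and 215 in hen2-2, with a log2 fold change of 0.11 (-0.25 to 0.48). The 7 complex I members tested ranged from -0.16 to 0.23, 6 of them positive, and on the mitochondrial scale from -0.24 to 0.14, 3 of them positive, and none passed the test. The most abundant complex IV transcript, cox1, had 345, 371 and 378 CPM in WT and 361, 389 and 374 in hen2-2, again overlapping (0.04, adjusted p 0.951). cox2, the subunit that receives electrons from cytochrome c, had a log2 fold change of 0.16 (-0.19 to 0.52), and the gene of subunit 3 (ATMG00730) one of -0.07 (-0.40 to 0.26). For complex V, atp1 had a log2 fold change of -0.01 (-0.40 to 0.37). The gene of subunit 6 (ATMG00410), part of the proton channel, had 182, 204 and 199 CPM in WT and 223, 244 and 236 in hen2-2, and the gene of subunit 8 (ATMG00480), a small membrane subunit, had 24.0, 27.3 and 25.9 in WT and 33.0, 38.5 and 36.4 in hen2-2. Both groups stood apart for these genes, with log2 fold changes of 0.27 (-0.09 to 0.62, adjusted p 0.527) and 0.48 (SE 0.13, adjusted p 0.173), which did not pass the test. ccmB, a subunit of the transporter used in cytochrome c maturation, had 8.89, 10.1 and 10.2 CPM in WT and 12, 13.9 and 15.2 in hen2-2, also without overlap (0.49, SE 0.14, adjusted p 0.182). Of the members of tRNA length, 15 passed the filter, and their log2 fold changes of 0.04 to 0.63 were all positive on the library scale, whereas on the mitochondrial scale 11 were positive and 4 negative (-0.05 to 0.52), with none called on either.

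The values of rpl5 rested on few reads beside those of its nuclear copy. The member had 3.74, 3.75 and 4.45 CPM in WT and 2.38, 2.49 and 2.23 in hen2-2. All hen2-2 libraries were below all WT libraries, with log2 fold changes of -0.84 (SE 0.14, 95% interval -1.18 to -0.51, adjusted p 0.0458) on the mitochondrial scale and -0.75 (SE 0.13, adjusted p 0.0533) on the library scale. These values rest on 330, 248 and 297 estimated reads in WT and 239, 219 and 242 in hen2-2. The copy AT2G07725 was assigned 7711, 6230 and 6534 reads in WT and 9387, 9200 and 10811 in hen2-2, whose libraries were deeper. Scaled to library size, the copy had 87.3, 94.3 and 97.8 CPM in WT and 93.3, 105 and 99.5 in hen2-2, which overlapped. The member held 4.1% and 2.33% of the reads of both. When the copy was summed into the member, a choice made after seeing the data, the log2 fold change became 0.06 (-0.27 to 0.40, adjusted p 0.9) on the library scale and -0.03 (-0.37 to 0.31, adjusted p 0.95) on the mitochondrial scale. The call was also lost when any 1 of the 6 libraries was left out, with adjusted p of 0.0634 to 0.223. In RNA-seq 2 the member held 27.4% of the sum in WT and 27.0% in hen2-2, and its CPM were 10.8, 10.7 and 13.3 in WT and 9.17, 9.78 and 13 in hen2-2, which overlapped (-0.12, adjusted p 1.0).

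For cob the member had more reads in hen2-2, and the difference was smaller in the sum. The member had 5.89, 15.4 and 7.07 CPM in WT and 15.2, 18.0 and 18.9 in hen2-2, so replicate 2 of WT was level with the mutant and the groups overlapped (log2 fold change 0.88, SE 0.36, adjusted p 0.363). Its reads were 520, 1015 and 472 in WT and 1530, 1585 and 2056 in hen2-2. The copy AT2G07727 had 16971, 13098 and 14078 reads in WT and 21096, 19804 and 24101 in hen2-2, or 192, 198 and 211 CPM and 210, 225 and 222 CPM, which overlapped. Member and copy together gave a log2 fold change of 0.17 (-0.18 to 0.52, adjusted p 0.706).

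Over all pairs, the 2 experiments divided reads between the genomes differently. A note on a nuclear gene paired 45 members with 46 chromosome 2 genes of the count tables. In RNA-seq 1 the members held 29.7 to 30.6% of the reads of a pair's sum over all pairs, 31 of 46 pairs had more reads on chromosome 2, and 5 pairs had equal values in every library within 1 read. One of these 5 was the gene of ATP synthase subunit 8, whose reads equalled those of AT2G07707 in all 6 libraries (1729 to 3957). The gene of subunit 9 had 37 to 142 reads, against 43083 to 85062 on AT2G07671. rps7, a small ribosomal subunit protein, had 0 reads against 2766 to 4986 on its copy. rps4, of the same subunit, had 0 reads in 5 libraries and 31 in replicate 3 of hen2-2, against 2659 to 4918 on its copy. In RNA-seq 2 the members held 42.9 to 44.1%, 32 pairs had more counts on chromosome 2, and 0 pairs were equal. There the gene of subunit 9 had 13633 to 43437 counts, against 17640 to 59487 on its copy. Counts on the chromosome 2 copies together came to 48.3 to 52.9% of the mitochondrial counts in the first experiment and 54.9 to 58.7% in the second. Whether the nuclear copies are themselves transcribed was not tested.

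**Figure D4:**
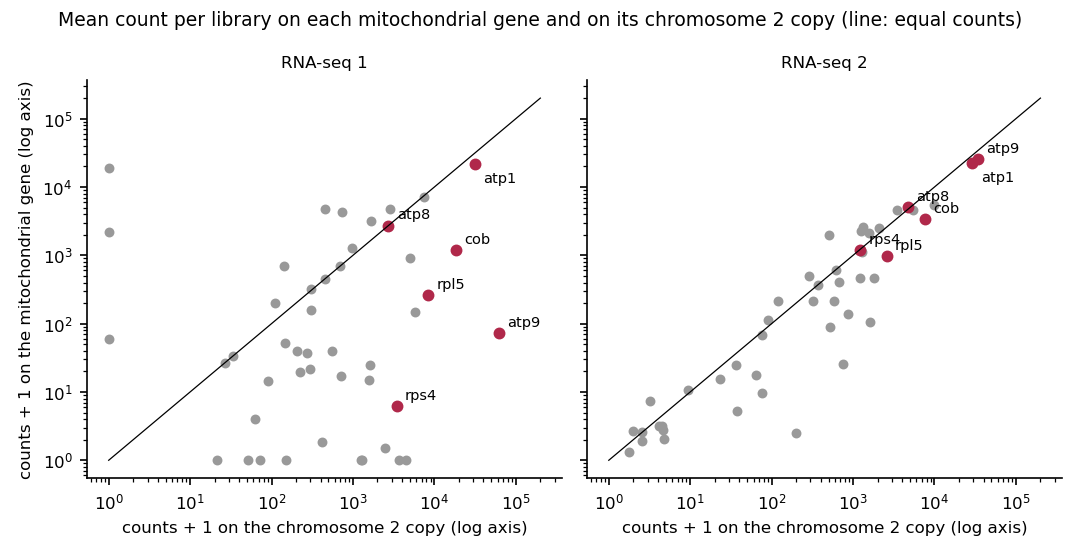
Mean count per library, plus 1, on each mitochondrial gene (vertical, log axis) against that on its chromosome 2 copy (horizontal, log axis) for RNA-seq 1 (left) and RNA-seq 2 (right); the line marks equal counts. Subunit 9 of ATP synthase (atp9) lies far below the line in RNA-seq 1, with 37 to 142 reads against 43083 to 85062, and close to it in RNA-seq 2.

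Libraries of the same replicate number deviated together in RNA-seq 1, and a fit with the replicate as a block called more members. On the library scale 6 members were called, 5 higher and 1 lower in hen2-2, where 12.3% of all genes were called. On the mitochondrial scale 9 were called, 4 higher and 5 lower, against 15.5% of all genes. The members called higher on both scales included ccmB (library scale 0.49, SE 0.08, adjusted p 0.0133), the gene of ATP synthase subunit 8 (0.48, SE 0.08, adjusted p 0.0133) and cob (1.0, SE 0.23, adjusted p 0.0363). rpl5 was called lower on both (library scale -0.75, SE 0.12, adjusted p 0.0115), and the 5S rRNA, a structural RNA of the large ribosomal subunit, was called lower on the mitochondrial scale (-0.85, SE 0.18, adjusted p 0.0165). With the copies summed under the same block, rpl5 (0.06, adjusted p 0.674) and cob (0.17, adjusted p 0.263) were no longer called. ccmB, for which no chromosome 2 copy was found, and the subunit 8 gene remained called. Summing could not test either of these genes. ccmB had nothing added, and the reads of the subunit 8 gene equalled those of its copy in every library. The summed fit called 6 members on the library scale, all higher, against 12.3% of all genes, and 4 higher and 4 lower on the mitochondrial scale, against 16.0% of all genes, with 136 members tested. Shares of 6 in 122 and 6 in 136 members were below those of all genes.

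In RNA-seq 2 no member passed the test in any comparison or scale, while 98 members passed the filter on low counts. For hen2-2 against WT, 0.308% of all genes were called on the library scale and 0.272% on the mitochondrial scale. At an unadjusted p under 0.05, 1 member was lower and 0 higher on the library scale, against 5.27% of all genes, and DESeq2 called 0 members and 1.35% of all genes. The libraries did not overlap for 2 higher and 5 lower members, against 12.9% of all genes, and the median log2 fold change was -0.01 (all genes, -0.00). Of the 98 intervals 50 lay within ±1. cox1 had 390, 359 and 285 CPM in WT and 378, 385 and 321 in hen2-2, atp1 had 263, 259 and 248 and then 222, 241 and 245, and nad9, a matrix arm subunit of complex I, had 84.0, 82.9 and 92.3 and then 82.3, 82.1 and 95.7. Of these only atp1 stood apart, with every hen2-2 library lower (-0.12, 95% interval -0.38 to 0.13). rps4 had 12.2, 16.5 and 15.9 CPM in WT and 10.1, 12.6 and 11.2 in hen2-2, overlapping in replicate 1 of WT (-0.40, adjusted p 0.744).

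The differences of members in hen2-2 did not run parallel in the 2 experiments. Of the 82 members tested in both, 51 (62.2%) had the same sign of the hen2-2 difference on the library scale, against 65.7% of the 18623 genes tested in both. The Pearson r of the log2 fold changes across genes was -0.02 for members and 0.53 for all genes. On the mitochondrial scale the values were 47 members (57.3%) and -0.02, against 66.4% and 0.52.

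In se-2 the mitochondrial transcripts leaned towards lower levels on the library scale and not on the mitochondrial scale. On the library scale 34 log2 fold changes were positive and 64 negative, with a median of -0.14 (all genes, -0.00), and on the mitochondrial scale the median was -0.01 (all genes, 0.13). Called genes made up 0.324% and 0.416% of all genes, and 0 members. At an unadjusted p under 0.05, 9 members were lower and 0 higher on the library scale (all genes, 7.09%), but 1 was lower and 0 higher on the mitochondrial scale (all genes, 8.11%). The libraries stood apart for 12 members, all lower, against 12.9% of all genes. Since se-2 had more libraries of the smaller size than WT, and the share differed with size as given above, the comparison was also fitted with a term for libraries over 100 M counts. In that fit 12 members had an unadjusted p under 0.05 on the library scale and 4 on the mitochondrial scale, and 0 were called, where 0.637% and 0.684% of all genes were. The share of all genes at an unadjusted p under 0.05 is not given for that fit, so the counts of 12 and 4 cannot be set against it. All 6 complex V genes had negative values, from -0.51 to -0.16 on the library scale and from -0.39 to -0.03 on the mitochondrial scale. For atp1, se-2 had 207, 212 and 224 CPM, below every WT library (-0.26, SE 0.12, adjusted p 0.688). ATMG01080, the subunit 9 gene, had 292, 266 and 241 CPM in WT and 243, 219 and 238 in se-2, with an overlap at replicate 3 of WT. rpl16, a protein of the large ribosomal subunit, had 71.7, 77 and 71.5 CPM in WT and 53.5, 53.3 and 65.6 in se-2, apart but not called (-0.35, SE 0.14, adjusted p 0.571). ATMG01090, named ORF262 and counted among the complex V genes because its note names ATP synthase 9, had 23.6, 29.1 and 31.5 CPM in WT and 19.4, 20.2 and 19.5 in se-2, and was the only member that DESeq2 called (-0.51, adjusted p 0.0434; edgeR, 0.304), where DESeq2 called 1.75% of all genes.

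Against WT, every library of the se-2 hen2-2 double mutant had a higher level of ATMG00690 and lower levels of rps4, ccmFN1 and ORF262, and none of these passed the test. In this comparison 0 members were called on either scale, where 2.38% and 2.24% of all genes were. At an unadjusted p under 0.05, 2 members were higher and 6 lower on the library scale (all genes, 14.6%), and 1 higher and 6 lower on the mitochondrial scale (all genes, 14.8%). The libraries did not overlap for 6 higher and 13 lower members, against 21.0% of all genes, and the median was -0.05 (all genes, 0.01). DESeq2 called these 4 members on each scale, and 6.15% and 6.1% of all genes.

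ATMG00690, an unannotated frame chosen for description after its values were seen, had 31.7, 32.1 and 35.5 CPM in WT, 31.5, 31.5 and 42.1 in hen2-2, and 32.7, 34.7 and 32.8 in se-2. In the double mutant it had 45.2, 52.2 and 50.3 CPM. Every double mutant library was above every other library. The log2 fold change of se-2 hen2-2 was 0.57 against WT (SE 0.15, 95% interval 0.24 to 0.91, adjusted p 0.0825), 0.56 against se-2 (adjusted p 0.147) and 0.49 against hen2-2 (adjusted p 0.255). Over 15 alternative settings the adjusted p against WT ran from 0.00457 to 0.257, and it passed in 4. The interaction of both mutations was 0.48 (unadjusted p 0.0462, adjusted p 0.872), so a departure from additive effects was not shown. In RNA-seq 1 it had 32.6, 37.3 and 42.5 CPM in WT and 34.8, 40.4 and 42.1 in hen2-2, which overlapped (0.06, adjusted p 0.919).

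Levels in the double mutant were lower than in WT for rps4 and ccmFN1, which encodes part of the haem ligation machinery of cytochrome c maturation. rps4 had 9.89, 9.83 and 10.9 CPM in se-2 hen2-2, below all WT libraries given above and below the 13.5, 14.1 and 13.9 of se-2 (-0.54 against WT, SE 0.16, adjusted p 0.109, and -0.43 against se-2, adjusted p 0.306). Its libraries overlapped those of hen2-2 alone (-0.15 against hen2-2, adjusted p 0.852). ccmFN1 had 5.8, 5.57 and 5.16 CPM in WT, 5.01, 4.74 and 4.99 in hen2-2, and 4.86, 4.81 and 3.84 in se-2. In the double mutant it had 3.48, 3.55 and 3.81 CPM. Its double mutant libraries were the lowest of all 12, with a log2 fold change of -0.61 against WT (SE 0.16, adjusted p 0.0771). Over 15 alternatives the adjusted p ran from 0.0167 to 0.346 for rps4 and from 0.00525 to 0.23 for ccmFN1. All 6 ribosomal protein genes had negative values against WT (-0.54 to -0.08), and the 3 complex IV genes had positive ones (0.05 to 0.10), with none called. ORF262 had 18.5, 21.3 and 18.9 CPM in the double mutant, below all WT libraries (-0.52, SE 0.15, adjusted p 0.117). These libraries overlapped those of se-2 (-0.01, adjusted p 0.994) and stood below those of hen2-2 (-0.25, adjusted p 0.643).

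**Figure D5:**
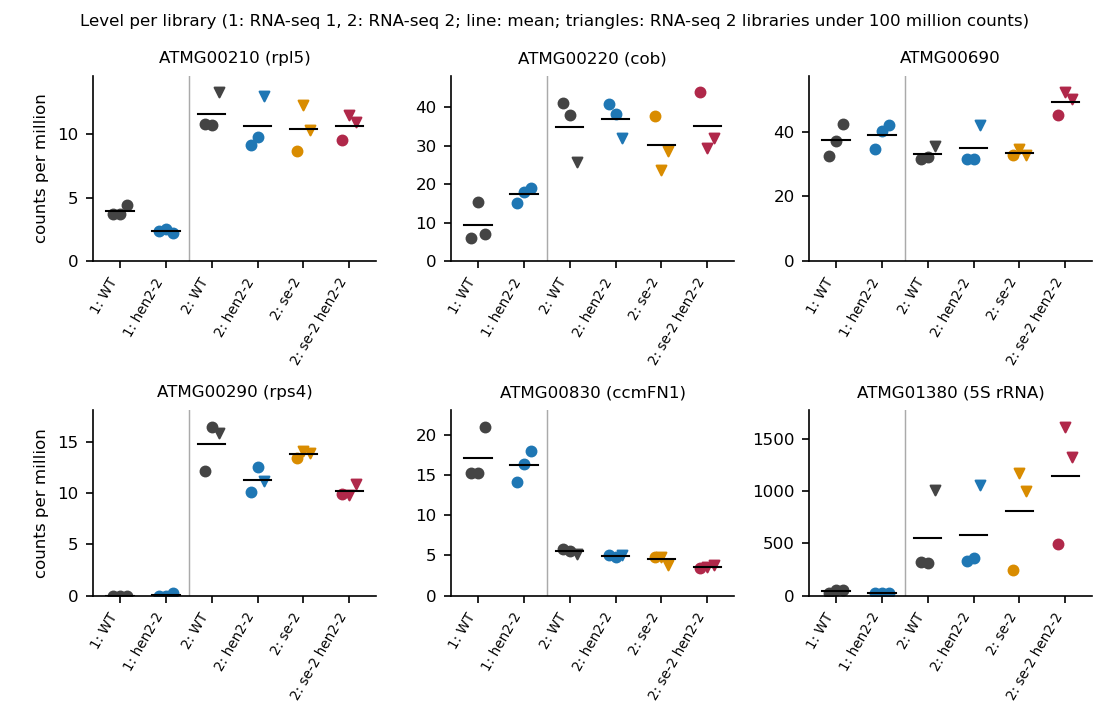
Level of 6 members in each library (vertical axis, CPM; the axis starts at 0) for the 2 genotypes of RNA-seq 1 and the 4 of RNA-seq 2, with lines at the means and triangles for RNA-seq 2 libraries under 100 M counts. ATMG00690 is at 45.2 to 52.2 CPM in se-2 hen2-2 and at or below 42.1 in the other RNA-seq 2 libraries, and the 5S rRNA is at 247 to 492 CPM in libraries above 100 M counts and at 1004 to 1618 in the others.

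Loss of HEN2 in the se-2 background was compared directly through se-2 hen2-2 and se-2. No member was called on either scale, where 0.884% and 0.864% of all genes were. At an unadjusted p under 0.05, 4 members were higher and 1 lower on the library scale (all genes, 10.9%), and 1 higher and 4 lower on the mitochondrial scale (all genes, 13.6%). The libraries stood apart for 11 higher and 3 lower members, against 15.8% of all genes. Medians were 0.07 (all genes, 0.01) on the library scale and -0.11 (all genes, -0.16) on the mitochondrial scale, on which the median of all genes moved by over 0.1 in this comparison and in se-2 against WT. The gene of ATP synthase subunit 9 had 312, 302 and 285 CPM in the double mutant, above every se-2 library (0.36, SE 0.13, adjusted p 0.29), and DESeq2 called it (adjusted p 0.0383) together with ATMG00690, where it called 3.17% of all genes. Here too libraries of the same number deviated together, and with the replicate as a block 1 member was called on each scale. These were ATMG00690 on the library scale (0.56, SE 0.12, adjusted p 0.0286), against 3.73% of all genes, and rps4 on the mitochondrial scale (-0.60, SE 0.14, adjusted p 0.0274), against 5.35%. For hen2-2 against WT, where the numbers also paired, the block called 0 members. In both of these comparisons, libraries of the same number were also on the same side of 100 M counts. Pairing by number and the split by library size thus overlap, and their parts were not separated.

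The remaining comparisons gave no called member. Between se-2 hen2-2 and hen2-2, 0.529% and 0.427% of all genes were called on the 2 scales, and at an unadjusted p under 0.05 1 member was higher and 1 lower on each scale (all genes, 10.1% and 9.91%). Libraries stood apart for 5 higher and 6 lower members, against 15.8% of all genes, and DESeq2 called ATMG00690 on the library scale and 0 members on the mitochondrial scale, where it called 2.67% and 2.5% of all genes. For the interaction of the mutations 0.0154% of all genes were called on each scale, and 1 member (library scale) or 0 members (mitochondrial scale) had an unadjusted p under 0.05, against 5.6% and 6.69% of all genes. The median half-width of its unadjusted interval was 0.94. For a typical member, interactions smaller than about that could not be told from 0, and a call after adjustment needed a larger one. The comparisons of RNA-seq 2 share libraries, so their values for a member are not independent of each other.

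Levels of the mitochondrial 5S rRNA followed library size in RNA-seq 2. It had 321, 309 and 1017 CPM in WT, 330, 359 and 1060 in hen2-2, and 247, 1173 and 1004 in se-2. In the double mutant it had 492, 1618 and 1331 CPM. It equalled 11.7 to 20.9% of the mitochondrial counts in libraries above 100 M counts and 47.9 to 69.9% in the others, so the genotypes overlapped. The log2 fold change of the double mutant was 1.06 against WT (SE 0.68, adjusted p 0.533). With a term for libraries of over 100 M counts it was 0.55 against WT (adjusted p 0.0454) and 0.61 against se-2 (adjusted p 0.0384). In RNA-seq 1 it had 25.5, 56.9 and 53.2 CPM in WT and 24.2, 24.9 and 26.4 in hen2-2, where replicate 1 of WT lay among the mutant libraries (-0.84, SE 0.30, adjusted p 0.28). ATMG00020 held 63.6 to 91.6% of all mitochondrial rRNA counts. All rRNA levels are those left after depletion, and the part of the depletion step in these differences was not tested.

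A single library decided the values of ATMG00920, a frame whose note gives an unknown protein. In RNA-seq 2 it had 197, 0 and 0 counts in se-2 hen2-2 and 109 to 226 counts in every other library. Its chromosome 2 copy AT2G07678 had 1466, 400 and 432 counts in the same double mutant libraries. When replicate 1 of se-2 hen2-2 was left out, the member was called lower in each comparison of that genotype with another, and in the interaction, on both scales, and with all libraries it was not called. Member and copy together gave log2 fold changes on the library scale of -0.20 against WT (SE 0.21, adjusted p 0.741) and -0.01 against se-2 (SE 0.21, adjusted p 0.994).

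Nuclear genes that serve mitochondria were examined as lists chosen with earlier results of these data known. Of 12 nuclear-encoded respiratory subunits, 0 were called in any comparison, with a median of 0.07 in the first experiment and of -0.03 to 0.11 in the second. Of 4 genes for mitochondrial RNA polymerases and ribonucleases, 0 were called without a block. With the block, RNR1, a ribonuclease of the RNase II family, was lower in se-2 hen2-2 than in se-2 (9.02, 8.78 and 9.4 CPM in se-2, 7.24, 4.64 and 5.45 in the double mutant, -0.66, SE 0.16, adjusted p 0.0387). Of the chromosome 2 genes that match mitochondrial DNA, 95 of 160 were tested in RNA-seq 1 and 64 in RNA-seq 2, with 0 called and median log2 fold changes of 0.08 and -0.05 for hen2-2 against WT. With the replicate as a block, 7 of the 95 were called in RNA-seq 1, 4 higher and 3 lower in hen2-2, against 12.3% of all genes.

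A list of 8 genes of the mitochondrial stress response, transcription factors included, had lower values in hen2-2 than in WT. This list too was chosen with earlier results of these data known. AOX1A and NDB2 were picked for display after their values were seen. The counts below therefore describe the list and do not test it. In RNA-seq 1 all 8 were negative (-2.36 to -0.24, median -0.91), 3 with an unadjusted p under 0.05 and 0 called. With the replicate as a block, 7 of the 8 were called lower, where 12.3% of all genes were called. In the same comparison the 1 flower marker tested had -1.88, also called with the block, and all 4 leaf markers were positive (median 0.23, 0 called), and their part in the values of this list was not tested. AOX1A, the alternative oxidase that bypasses complexes III and IV, had 33.0, 28.9 and 17.6 CPM in WT and 21.0, 14.8 and 7.83 in hen2-2 (block -0.93, SE 0.11, adjusted p 0.00483). NDB2, an external NADH dehydrogenase, had 13.3, 10.1 and 11.1 CPM in WT and 6.42, 4.65 and 6.35 in hen2-2, without overlap (block -0.99, SE 0.09, adjusted p 0.00212). Each hen2-2 library was below the WT library of its number for both genes. In RNA-seq 2 the 7 tested genes again all had negative values (median -0.61), 2 with an unadjusted p under 0.05, and 0 were called with or without the block. There NDB2 had 8.44, 7.97 and 8.63 CPM in WT and 4.68, 3.08 and 4.19 in hen2-2 (-1.07, SE 0.30, adjusted p 0.312). In se-2 hen2-2 against se-2 the same list had 3 positive and 4 negative values with a median of -0.01. Leaf marker genes were lower in se-2 hen2-2 than in WT for 4 of 4 (median -0.51, 3 with an unadjusted p under 0.05, 0 called), and their part in the differences of that genotype was not tested.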

How the data were processed

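RNA-seq was performed on 6 libraries of RNA-seq 1 and 12 of RNA-seq 2, and the small RNA libraries were not used. For RNA-seq 1 the authors deposited estimated counts and TPM per transcript in the layout of salmon (the tool and version are not given in the sources used here). Estimated counts were summed per gene and rounded, and TPM was used only in an alternative, limma on log2(TPM + 1) or log2(TPM + 0.1). For RNA-seq 2 the authors deposited counts per gene made with HISAT2, StringTie and its prepDE script on TAIR10, after trimming and removal of rRNA reads, so rRNA levels depend on both depletion and filtering, and counts from StringTie are derived from coverage. Totals were 62.58 to 105.5 and 47.75 to 156.6 M counts per library, and floors of 3 counts cover counting error only. These totals are not read depth. The paper gives a lower average of mapped reads for RNA-seq 2 than for RNA-seq 1. Every total of RNA-seq 2 lay above that average, so 3 counts there need not be 3 reads.

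Tests used edgeR 4.0.16 (quasi-likelihood, TMM, filterByExpr, genotype only, R 4.3.3) on all genes, with Benjamini-Hochberg adjustment over all genes and calls at 0.05, checked on simulated data. The members and lists were chosen with earlier results of these data known. Named members follow a rule by class, the 3 with the highest mean level, plus called members; ATMG00690, ORF262, ccmB, the subunit 8 gene, rps7, ATMG00665, ATMG00920 and the nuclear AOX1A, NDB2 and RNR1 were added after their values were seen. Alternatives were DESeq2 1.42.0, limma 3.58.1, RLE factors, no filter, other mitochondrial sums, a replicate block, a term for libraries over 100 M counts, the compared genotypes alone and each library left out. Copies summed into members were added after seeing the data, and only for members that a note paired with a copy. ccmFN1, nad7 and nad4 had chromosome 2 copies covering 100% of the member but no such note, so their values stayed unsummed. Copies were found with BLAST 2.17.0 (95% identity, 80% cover) in TAIR10.1. The study does not say what a replicate number shares, so pairing was taken from the data. Correlations of deviations between libraries of the same number, over all genes, were 0.61, 0.35 and 0.69 in RNA-seq 1, 0.50, 0.32 and 0.28 for hen2-2 against WT and 0.53, 0.13 and 0.21 for se-2 hen2-2 against se-2 in RNA-seq 2 (minimum for pairing, 0.1), while the other comparisons had a pair under 0.1. In RNA-seq 2 the comparisons that paired were those whose libraries of the same number all matched in size (over or under 100 M counts). In the others replicate 2 differed in size and gave the correlation under 0.1. Pairing there may therefore reflect library size. Python 3.11.15, numpy 2.4.6, scipy 1.17.1, pandas 2.3.3 and matplotlib 3.10.9 were used.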

Additional observations from a re-analysis of the deposited data

How the results depend on the processing

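In RNA-seq 1 the number of members called on the library scale was 0, and it was 6 with the replicate block, 6 with the block and the copies summed, 3 with DESeq2, 1 with RLE factors and 1 with limma on log2(TPM + 1) or on log2(TPM + 0.1). On the mitochondrial scale it was 1, and it was 9 with the block, 8 with the block and the copies summed, 2 with DESeq2, and 0 with no filter, with the copies summed, with TMM over mitochondrial genes, with rRNA genes in the sum, with a sum over members without a copy, with ATMG00030 left out of the sum, and with each library left out (0 to 0). In RNA-seq 2 the number was 0 in every comparison and on both scales in the main fit (edgeR, genotype only). For se-2 against WT, DESeq2 called 1 on the library scale. For se-2 hen2-2 against WT, the library scale gave 4 with the replicate block, 4 with the block and the copies summed, 4 with DESeq2, 3 with the term for large libraries and 0 to 1 with a library left out, and the mitochondrial scale gave 4, 4, 4, 2 and 0 to 1. For se-2 hen2-2 against se-2 the library scale gave 1, 1, 2, 2 and 0 to 1 under the same settings, and the mitochondrial scale gave 1, 1 and 1 under the first 3 and 0 to 1 with a library left out. For se-2 hen2-2 against hen2-2 the library scale gave 1 with the block, 1 with the block and the copies summed, 1 with DESeq2 and 0 to 1 with a library left out, the last also on the mitochondrial scale and, on both scales, for the interaction. Replicate 1 of se-2 hen2-2 was the library whose removal gave the call in each. Where numbers did not pair the samples (se-2 hen2-2 against WT or hen2-2), the block calls are given as counts only. With the replicate block no other count of members changed. Counts in this section show only how the calls depend on the setting. Where no share of all genes is given above for a setting, its count cannot be compared with that of other genes. rpl5 turned from -0.75 to 0.06 on the library scale of RNA-seq 1 when its copy was summed, without and with the block, and the 5S rRNA, for se-2 hen2-2 against se-2 on the mitochondrial scale, ran from -0.11 (without se-2 replicate 1) to 0.73 (without se-2 replicate 2). The log2 ratio of shares in RNA-seq 1 moved from 0.01 to -0.16 with rRNA genes kept. Over all counts of called members 48 alternative values moved and 184 did not, and of the share ratios 1 moved and 59 did not. The interaction could not be fitted on the compared genotypes alone, and causes of these changes were not tested. The median half-width of a member's interval was 0.59 in RNA-seq 1 and 0.66 in RNA-seq 2 on the library scale.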
